A study of Mus musculus with 9 samples.

Results

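Excitation-contraction coupling and the calcium stores of muscle cells were followed through 32 genes, chosen by name: every probe whose gene name in the scanner files was one of the 32 was taken. The rule itself uses no measured value, although the list of genes was drawn up with earlier results of these data known. All 32 genes were on the array, through 51 probes, and 31 of them passed the filter on dim probes and were tested beside the rest of the 21930 genes tested. Pln, which encodes phospholamban, did not pass, because its probe was above background on 1 vehicle array and on no treated array. The cells were C2C12, an immortal mouse myoblast line that fuses into contractile myotubes in culture, so all values come from 1 line. Total RNA was measured after 72 h in 3 groups of 3 arrays each, which were vehicle, 1 nM calcitriol and 10 nM calcitriol, with no genetic change named in any group. Calcitriol is the active hormone made from vitamin D, which acts through a nuclear receptor. The series calls the cells myotubes, while the day of differentiation at which treatment began and the make-up of the vehicle are not given in the sources used here.

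In a muscle fibre, an action potential travels into the T-tubules, where a voltage-sensing calcium channel touches the ryanodine receptor of the sarcoplasmic reticulum and opens it. The calcium that leaves the store starts contraction, and pumps of the SERCA family return it to the lumen, where calsequestrins bind it. Junctophilins hold both membranes together, and a sensor in the store membrane opens a channel of the plasma membrane when the store runs low. Cultured myotubes acquire this machinery as they differentiate.

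Each value is the log2 of an array's background-corrected signal minus the log2 of that array's 75th percentile, so 0 is the level of a probe at that percentile. The 75th percentile lay between 2826 and 3389 signal units on the 9 arrays, no spot was saturated, and 44397 spots were read per array. Vehicle replicate 3 stood apart: 13.8% of its spots (6124) were marked as outliers against 8 to 56 spots on each of the other arrays, and its median signal was 660 against 216 to 315. Marked spots were left out, so Ryr3, Itpr1 and Asph have no value on that array and rest on 2 vehicle arrays. The arrays lay on 3 slides; slide 1 held vehicle replicates 1 and 2 with 1 array of each dose, slide 2 held vehicle replicate 3 with 2 arrays at 1 nM and 1 at 10 nM, and slide 3 held 1 array at 10 nM. Differences are given as log2 changes of treated minus vehicle with a standard error (SE) or a 95% confidence interval, from 1 limma fit over all genes and all 9 arrays. A gene rose or fell where its limma p-value, adjusted over all genes by the Benjamini-Hochberg method, was below 0.05. The p-values measure the spread between these samples, which the series describes as biological replicates. In RNA from a whole culture, fewer cells of a type and less RNA per cell cannot be told apart.

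At 1 nM calcitriol 17 of the 31 tested members rose, or 54.8%, against 11.8% of all genes tested, and 1 fell, against 11.8% of all genes falling. At 10 nM 15 members rose, or 48.4%, against 15.5% of all genes, and 2 fell, or 6.45%, against 14.7% of all genes. The median change over the 31 members was 0.41 at 1 nM and 0.46 at 10 nM, where the median over all genes was -0.09 and -0.11. The comparisons at both doses share the vehicle arrays, so their likeness is not counted as a second measurement. Without vehicle replicate 3, 17 members rose and 1 fell at each dose, and the median was 0.40 at 1 nM and 0.42 at 10 nM. Of all 21930 genes, 2916 rose and 2645 fell at 1 nM in that setting, and 3785 and 3352 at 10 nM. With the slide as a block 16 members were higher at 1 nM and 14 at 10 nM, where 10.2% and 12.9% of all genes were. The median there was 0.45 at both doses. Within slide 1 it was 0.42 at 1 nM and 0.44 at 10 nM. Within slide 2, where Ryr3, Itpr1 and Asph had no vehicle value, it was 0.55 and 0.51. Slide 1 has 1 array of each dose, and slide 2 has 1 vehicle array and 1 at 10 nM. Only medians are given there, since 1 array shows no spread within its group.

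The counts depended on how the arrays were scaled. With each array centred on its median, which lies low on all arrays except vehicle replicate 3, the median over all genes moved by 0.47 at 1 nM and 0.51 at 10 nM, and 4 members rose at 1 nM and 9 at 10 nM. Over all genes, that scaling called 939 higher and 572 lower at 1 nM, where the 75th percentile gave 2584 higher and 2591 lower, and 1694 higher and 831 lower at 10 nM against 3391 and 3219. The members' median lay above the median of all genes by 0.50 under the 75th percentile and by 0.51 under the array median at 1 nM, and by 0.57 and 0.58 at 10 nM. Of the members that rose, Cacna2d1, Atp2a2 and Trdn kept their calls under the array median at 1 nM. At 10 nM Cacna2d1, Cacng1, Ryr1, Atp2a2, Hrc, Trdn, Stim1 and Orai1 did. The dim gene Sln, not called under the 75th percentile, was called under the array median at both doses, at 1.26 and 1.22 (limma adjusted p = 0.0112 and 0.00893).

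**Figure D1:**
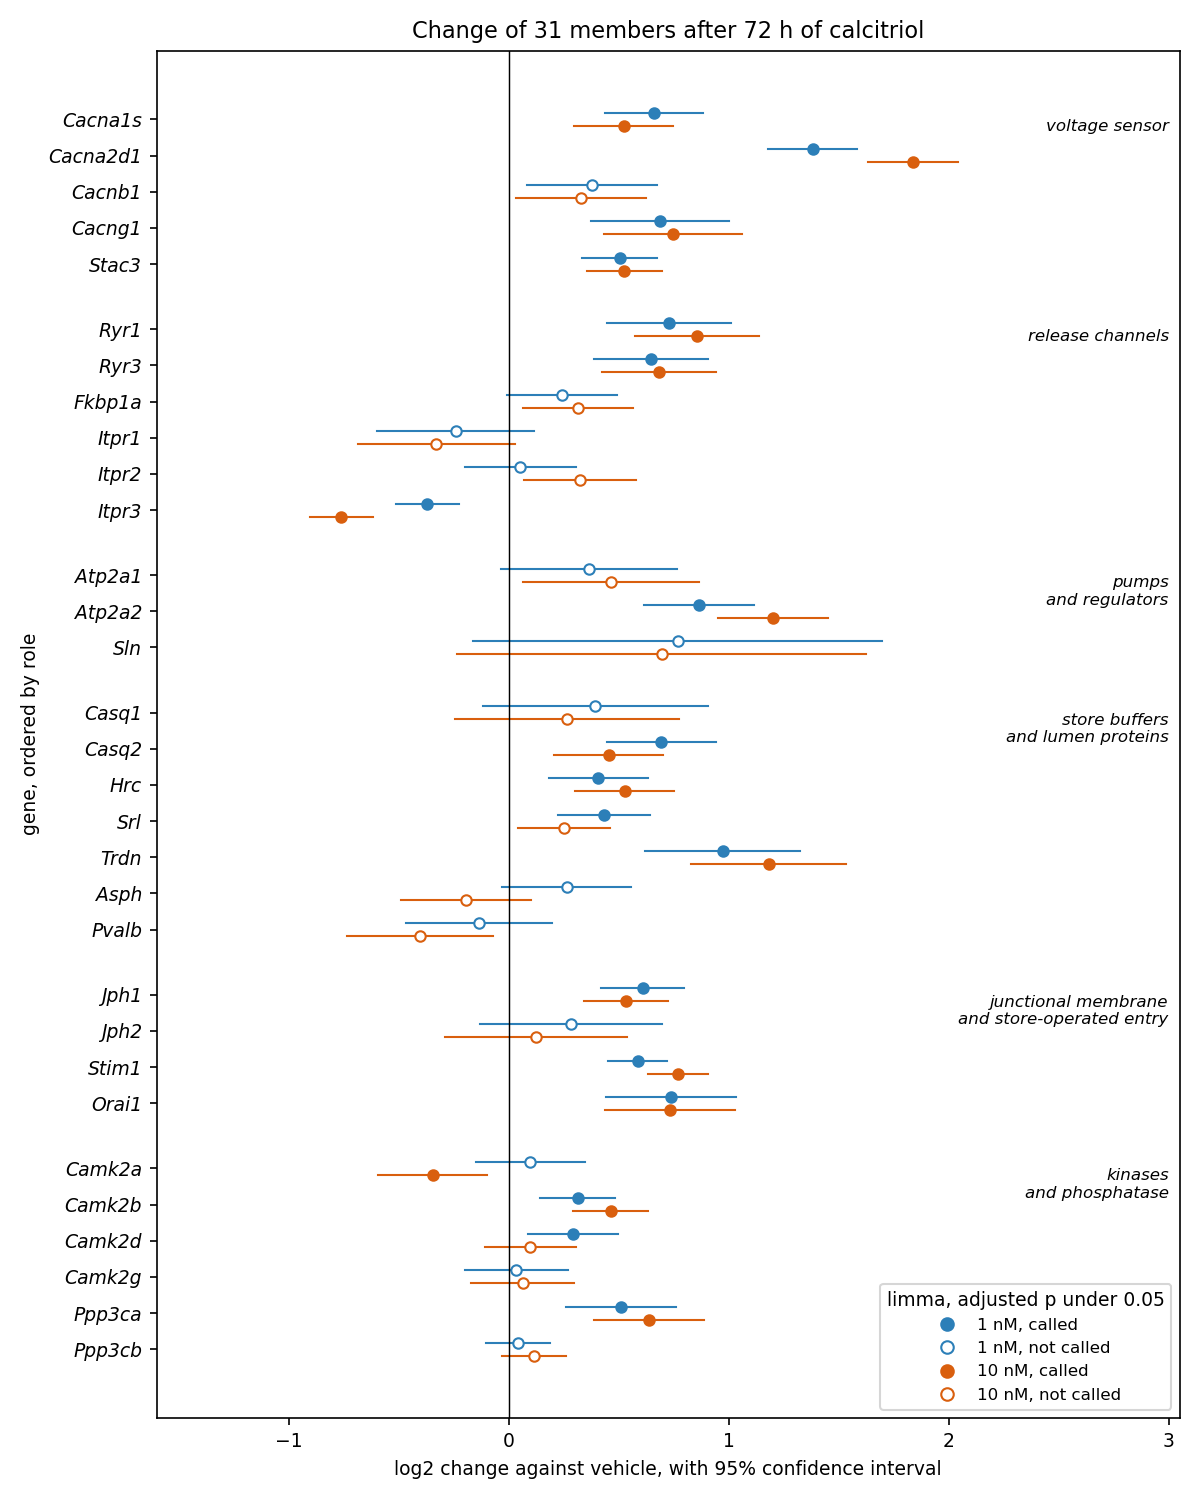
The log2 change of each of the 31 tested members at 1 nM and 10 nM calcitriol against vehicle is plotted by role, with bars for the 95% confidence interval and filled points where the gene rose or fell. Cacna2d1 lies farthest to the right at 1.38 and 1.84, and Itpr3 farthest to the left among the members that fell, at -0.37 and -0.76; with arrays scaled on their median Itpr3 turns to 0.12 at 1 nM.

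The voltage sensor of the T-tubule had 4 of its 5 members higher at both doses and none lower, also at an unadjusted limma p under 0.05, where 5 were higher. Of all genes, 11.8% rose and 11.8% fell at 1 nM, and 15.5% rose and 14.7% fell at 10 nM, and the counts by role that follow are read against these shares. Cacna1s encodes the pore-forming and voltage-sensing subunit of the channel. Its values were 4.55, 4.39 and 4.51 in vehicle, 5.0, 5.13 and 5.30 at 1 nM, and 5.06, 4.92 and 5.04 at 10 nM. Every treated array lay above every vehicle array, and the level rose by 0.66 (SE 0.096) at 1 nM and by 0.52 at 10 nM, which is 1.58-fold (adjusted p = 0.00198) and 1.44-fold (adjusted p = 0.00471). A second Cacna1s probe rose as well.

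Cacna2d1, which encodes the extracellular auxiliary subunit of the channel, had the largest change of all members at both doses. It stood at 2.21, 2.21 and 2.00 in vehicle, at 3.50, 3.49 and 3.58 at 1 nM, and at 4.09, 3.94 and 3.91 at 10 nM. The 3 groups formed separate steps without overlap. The rise was 1.38 (95% interval 1.18 to 1.58) or 2.61-fold at 1 nM and 1.84 (1.64 to 2.04) or 3.58-fold at 10 nM, with adjusted p = 2.38e-05 and 3.44e-06. Its second probe gave 1.41 and 1.79.

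Cacng1 encodes the transmembrane gamma subunit that is found in the skeletal muscle channel, and Cacnb1 the cytoplasmic beta subunit that carries the channel to the triad. Cacng1 went from 1.93, 2.26 and 1.75 in vehicle to 2.66, 2.65 and 2.69 at 1 nM and 2.79, 2.57 and 2.81 at 10 nM. Every treated array lay above every vehicle array, while the arrays of both doses overlapped, and the rise was 0.69 (SE 0.134) at 1 nM and 0.75 at 10 nM, or 1.61-fold and 1.68-fold (adjusted p = 0.00816 and 0.0042). With normexp background correction and quantile normalization the change at 1 nM was 0.57 and missed the threshold (adjusted p = 0.0522), as it did with the submitters' values (adjusted p = 0.0553). Cacnb1 was the member of the sensor that did not pass the test, with a change of 0.38 at 1 nM (adjusted p = 0.0705) and 0.33 at 10 nM (adjusted p = 0.0922). Its vehicle replicate 2, at 1.03, lay among the treated arrays, while the other vehicle arrays were at 0.63 and 0.56, and without that array Cacnb1 changed by 0.52 (adjusted p = 0.00464) and 0.47 (adjusted p = 0.00552). The arrays read both transcripts with 60-base probes on the minus strand of chromosome 11, at chr11:107565096-107565155 for Cacng1 and chr11:97866536-97866595 for Cacnb1 (build mm9, as the scanner files give it), shown here because these subunits of 1 channel differ in their calls.
Cacng1: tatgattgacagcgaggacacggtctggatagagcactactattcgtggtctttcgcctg
Cacnb1: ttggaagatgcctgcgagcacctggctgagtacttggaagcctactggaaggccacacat

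Stac3 encodes the adaptor that links the voltage sensor to the ryanodine receptor. It was measured at 2.30, 2.46 and 2.45 in vehicle, 2.82, 2.96 and 2.95 at 1 nM, and 2.89, 2.97 and 2.93 at 10 nM. Treated arrays lay in a narrow band above all vehicle arrays. The rise was 1.42-fold at 1 nM (adjusted p = 0.00196) and 1.44-fold at 10 nM (adjusted p = 0.00118).

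Of the 6 release channel genes 2 rose and 1 fell at each dose. Both ryanodine receptors of the list rose, and of the inositol trisphosphate receptors, which release store calcium on a second messenger, 1 fell and the other two did not pass the test. Ryr1, the release channel of skeletal muscle, stood at 1.82, 2.08 and 1.63 in vehicle, at 2.62, 2.48 and 2.61 at 1 nM, and at 2.76, 2.58 and 2.75 at 10 nM. Vehicle and treated arrays did not overlap, and the rise was 0.73 (0.45 to 1.01) or 1.66-fold at 1 nM and 0.86 (0.57 to 1.14) or 1.81-fold at 10 nM, with adjusted p = 0.00369 and 0.00124. Its probe lies on the minus strand at chr7:29788789-29789487 (mm9), a stretch of 699 bases for 60 bases of probe, so that it reads sequence joined across an intron.
Ryr1: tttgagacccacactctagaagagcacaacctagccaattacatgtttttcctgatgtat

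Ryr3, the ryanodine receptor of immature and some adult muscles, was dimmer. It was at -1.22 and -1.34 on the vehicle arrays with a value, at -0.79, -0.60 and -0.51 at 1 nM, and at -0.68, -0.52 and -0.58 at 10 nM. It rose 1.57-fold at 1 nM (adjusted p = 0.00589) and 1.61-fold at 10 nM (adjusted p = 0.00347), with 2 vehicle arrays behind the fit. With the marked spot of vehicle replicate 3 kept, the changes were 0.39 (adjusted p = 0.24) and 0.43 (adjusted p = 0.171), and with the submitters' values 0.43 (adjusted p = 0.23) and 0.44 (adjusted p = 0.206), so neither call held. Fkbp1a, whose product binds and steadies the ryanodine receptor, changed by 0.24 (adjusted p = 0.158) and 0.31 (adjusted p = 0.0628) and did not pass the test. Without vehicle replicate 2, its highest vehicle array, the changes were 0.35 (adjusted p = 0.0307) and 0.42 (adjusted p = 0.0122).

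Itpr3 was the member that fell at both doses. It went from 3.19, 3.06 and 3.12 in vehicle to 2.72, 2.74 and 2.81 at 1 nM and 2.34, 2.38 and 2.37 at 10 nM. The 3 groups were apart from each other, in the reverse order of Cacna2d1. The Itpr3 probe was printed as 10 spots per array, which were averaged, where each other member probe had 1 spot. Its spread between arrays is therefore not directly comparable with theirs. The change was -0.37 (-0.51 to -0.23) at 1 nM (adjusted p = 0.00402) and -0.76 (-0.91 to -0.62) at 10 nM, which is 1.69-fold lower (adjusted p = 6.32e-05). With arrays scaled on their median the value at 1 nM turned to 0.12 (adjusted p = 0.821), and at 10 nM it was -0.23 (adjusted p = 0.625). With the 75th percentile taken over unmarked spots it was -0.22 at 1 nM (adjusted p = 0.34). Itpr1 and Itpr2 did not pass the test: Itpr1 changed by -0.24 and -0.33, and Itpr2 by 0.05 (adjusted p = 0.757) and 0.32 (adjusted p = 0.0584). Without vehicle replicate 3 the change of Itpr2 at 10 nM was 0.45 (adjusted p = 0.0022).

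Of the pumps, the slow-muscle and housekeeping pump gene Atp2a2 rose and the fast-muscle gene Atp2a1 did not pass the test. Atp2a2 stood at 3.19, 2.98 and 2.84 in vehicle, at 3.91, 3.81 and 3.89 at 1 nM, and at 4.30, 4.06 and 4.26 at 10 nM. All treated arrays lay above all vehicle arrays, and those at 10 nM above those at 1 nM. The rise was 0.87 (0.62 to 1.11) or 1.82-fold at 1 nM (adjusted p = 0.000837) and 1.2 (0.95 to 1.45) or 2.30-fold at 10 nM (adjusted p = 0.000102). Atp2a1 was at 1.06, 1.47 and 0.91 in vehicle, 1.61, 1.33 and 1.60 at 1 nM, and 1.63, 1.41 and 1.80 at 10 nM. Its groups overlapped through vehicle replicate 2, and its changes of 0.37 (adjusted p = 0.18) and 0.47 (adjusted p = 0.0795) did not pass the test. Without that array they were 0.53 (adjusted p = 0.0436) and 0.63 (adjusted p = 0.0191). A probe of each pump gene is printed because the call separates these paralogs: both probes lie on the minus strand, at chr5:122910660-122910719 for Atp2a2, whose probe here is the dimmer of its pair, and at chr7:133591703-133591762 for Atp2a1 (mm9).
Atp2a2: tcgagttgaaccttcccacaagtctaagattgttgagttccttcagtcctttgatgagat
Atp2a1: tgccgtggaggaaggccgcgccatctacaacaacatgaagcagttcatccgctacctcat

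Sln and Pln encode small membrane proteins that inhibit the pumps. Sln was dim, at -5.58, -6.05 and -4.33 in vehicle, -4.80, -4.50 and -4.35 at 1 nM, and -4.44, -4.66 and -4.78 at 10 nM. Vehicle replicate 3 lay above every treated array and the other vehicle arrays below all of them, so that the change of 0.77 (SE 0.398; adjusted p = 0.221) at 1 nM and of 0.70 at 10 nM (adjusted p = 0.228) did not pass the test. Without vehicle replicate 3 the change was 1.27 (adjusted p = 0.00334) and 1.19 (adjusted p = 0.00331). Sln was also called at both doses with normexp and quantile normalization, at 0.91 (adjusted p = 0.00602) and 0.87 (adjusted p = 0.00599). The same held with array median scaling, the submitters' values and array weights. Pln read -8.97, -8.17 and -5.07 in vehicle and between -9.21 and -8.34 on the treated arrays. Its value above background was again that of vehicle replicate 3, and no fold is given for it.

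Among the proteins of the store lumen and its membrane and the cytoplasmic buffer, 4 of 7 tested members rose at 1 nM and 3 at 10 nM, and none fell by limma, with 0 and 1 lower at an unadjusted p under 0.05. Casq2, the calsequestrin of cardiac and slow muscle, stood at 3.25, 3.53 and 3.29 in vehicle, at 3.90, 4.05 and 4.21 at 1 nM, and at 3.79, 3.84 and 3.81 at 10 nM. Its treated arrays lay above all vehicle arrays, and it rose 1.62-fold at 1 nM (adjusted p = 0.00253) and 1.37-fold at 10 nM (adjusted p = 0.0143). Without 10 nM replicate 2 the change at 10 nM was 0.44 with adjusted p = 0.0514, with the slide as a block it was 0.45 with adjusted p = 0.0609, and with the submitters' values it was 0.35 with adjusted p = 0.0529. Casq1, the calsequestrin of fast muscle, changed by 0.39 (adjusted p = 0.251) and 0.27 (adjusted p = 0.387). Vehicle replicate 2, at 1.11, was its highest array of all, and the other vehicle arrays were at 0.25 and 0.29, below every treated array. Without vehicle replicate 2 Casq1 changed by 0.67 (adjusted p = 0.00275) and 0.54 (adjusted p = 0.00524).

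Trdn encodes triadin, which ties calsequestrin to the ryanodine receptor. It was at -0.03, 0.27 and -0.26 in vehicle, 0.82, 1.11 and 0.97 at 1 nM, and 1.24, 1.28 and 1.01 at 10 nM. The vehicle arrays lay apart from all treated arrays, and the rise was 0.97 (0.62 to 1.33) or 1.96-fold at 1 nM (adjusted p = 0.0028) and 1.18 (0.83 to 1.54) or 2.27-fold at 10 nM (adjusted p = 0.000766). A second kept probe, on the plus strand at chr10:32915796-32915855 (mm9), rose by 0.67 and 0.94, and its sequence is given because the gene makes several isoforms and each probe reads some of them.
Trdn: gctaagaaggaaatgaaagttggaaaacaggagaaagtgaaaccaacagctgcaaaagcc

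Hrc, a histidine-rich calcium-binding protein of the lumen, stood at 4.07, 3.97 and 4.12 in vehicle, at 4.32, 4.52 and 4.54 at 1 nM, and at 4.60, 4.70 and 4.45 at 10 nM. It rose 1.33-fold at 1 nM (adjusted p = 0.0191) and 1.44-fold at 10 nM (adjusted p = 0.00459) with no overlap between vehicle and treated arrays. The call at 1 nM was lost on leaving out vehicle replicate 2, or replicate 2 or 3 of the 1 nM group, where the change was 0.36, 0.38 and 0.37 with adjusted p = 0.0514, 0.077 and 0.0781, and with the replicate number as a block (adjusted p = 0.0502). Srl, which encodes sarcalumenin, a partner of the pumps in the lumen, rose 1.35-fold at 1 nM (adjusted p = 0.0107), and its change at 10 nM was 0.25 (adjusted p = 0.0712). The call at 1 nM was lost with normexp and quantile normalization (0.35, adjusted p = 0.0776), the submitters' values (0.35, adjusted p = 0.0831) and the 75th percentile of unmarked spots (0.58, adjusted p = 0.0711). Pvalb, the cytoplasmic buffer of fast fibres, was below the 75th percentile on every array and changed by -0.14 (adjusted p = 0.526) and -0.40 (adjusted p = 0.0702). Its change at 10 nM was -0.55 without vehicle replicate 2 (adjusted p = 0.0115) and -0.50 without 10 nM replicate 1 (adjusted p = 0.0474).

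Of the 4 members of the junctional membrane and of store-operated entry, 3 rose at both doses and none fell by limma at an adjusted or unadjusted p under 0.05. Stim1, the calcium sensor of the store membrane, had the tightest groups, at 0.97, 1.01 and 1.01 in vehicle, 1.59, 1.60 and 1.57 at 1 nM, and 1.83, 1.73 and 1.74 at 10 nM. Each group lay above the one before it in dose. The rise was 0.59 (0.45 to 0.72) or 1.5-fold at 1 nM (adjusted p = 0.000263) and 0.77 (0.63 to 0.90) or 1.70-fold at 10 nM (adjusted p = 4.18e-05), and its second probe gave 0.65 and 0.77. Orai1, the plasma membrane channel that Stim1 opens, was at -1.22, -0.76 and -1.08 in vehicle, -0.31, -0.36 and -0.18 at 1 nM, and -0.28, -0.39 and -0.20 at 10 nM. Both doses lay at the same height above vehicle, and the rise was 1.67-fold (adjusted p = 0.00435) and 1.66-fold (adjusted p = 0.00338). With the mean of its probes in place of the brightest, the change at 1 nM was 0.48 (adjusted p = 0.0703).

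Jph1, the junctophilin that holds the triad of skeletal muscle together, stood at -3.09, -3.05 and -3.15 in vehicle, at -2.50, -2.60 and -2.36 at 1 nM, and at -2.49, -2.57 and -2.62 at 10 nM. It rose by 0.61 (SE 0.082) at 1 nM and 0.53 at 10 nM, or 1.52-fold and 1.45-fold, with adjusted p = 0.0013 and 0.0019, and no treated array reached down to a vehicle array. With normexp and quantile normalization the changes were larger but missed the threshold, at 1.05 (adjusted p = 0.07) and 0.96 (adjusted p = 0.0789), as they did with the submitters' values, at 1.02 (adjusted p = 0.0727) and 0.93 (adjusted p = 0.0818). Jph2, the junctophilin that heart and skeletal muscle share, changed by 0.28 (adjusted p = 0.302) and 0.13 (adjusted p = 0.612). Its vehicle arrays, from -1.35 to -0.83, overlapped those of both doses.

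The calcium-dependent kinases and the calcineurin subunits had 3 of 6 members higher and none lower at 1 nM by limma, also at an unadjusted p under 0.05, and 2 higher and 1 lower at 10 nM. Ppp3ca, a catalytic subunit of the phosphatase calcineurin, which calcium and calmodulin switch on, stood at 3.26, 3.11 and 2.86 in vehicle, at 3.64, 3.63 and 3.48 at 1 nM, and at 3.74, 3.74 and 3.65 at 10 nM. The groups did not overlap, and it rose 1.42-fold at 1 nM (adjusted p = 0.0119) and 1.56-fold at 10 nM (adjusted p = 0.00309). Without 1 nM replicate 2 the change at 1 nM was 0.49 with adjusted p = 0.0510, and with the 75th percentile of unmarked spots it was 0.66 with adjusted p = 0.0668. The other catalytic subunit on the list, Ppp3cb, changed by 0.04 and 0.12 and did not pass the test.

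The 4 genes of calmodulin-dependent kinase II did not move as a group. Camk2b rose 1.24-fold at 1 nM (adjusted p = 0.0181) and 1.38-fold at 10 nM (adjusted p = 0.00223), and the call at 1 nM was lost without 1 nM replicate 2 or 1 nM replicate 3, at 0.29 (adjusted p = 0.0773) and 0.30 (adjusted p = 0.0718). It went from 0.50, 0.53 and 0.36 in vehicle to 0.70, 0.84 and 0.80 at 1 nM and 0.96, 0.95 and 0.88 at 10 nM. With the mean of its probes the changes were 0.08 (adjusted p = 0.808) and 0.07 (adjusted p = 0.838), so neither call held, and the call at 1 nM was also lost with the 75th percentile of unmarked spots (0.46, adjusted p = 0.113) and with only the 2 groups compared (adjusted p = 0.059). Camk2a was at -1.81, -2.1 and -1.77 in vehicle, -1.89, -1.73 and -1.78 at 1 nM, and -2.15, -2.34 and -2.24 at 10 nM. Its arrays at 10 nM lay below all others, and it fell by 0.35 there (adjusted p = 0.0436), with a change of 0.10 at 1 nM (adjusted p = 0.54). That call was lost without any single array other than vehicle replicate 2, where the change lay between -0.39 and -0.28 and adjusted p between 0.0528 and 0.139, and with arrays scaled on their median the value turned to 0.18 (adjusted p = 0.686). With normexp and quantile normalization it was -0.05 (adjusted p = 0.804). Camk2d rose at 1 nM by 0.29 with adjusted p = 0.0499, a call lost under 22 of 27 alternatives and without any single array other than vehicle replicate 1, at 0.22 to 0.33 with adjusted p from 0.0686 to 0.165. At 10 nM Camk2d changed by 0.10 (adjusted p = 0.427). Camk2g changed by 0.04 and 0.07.

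**Figure D2:**
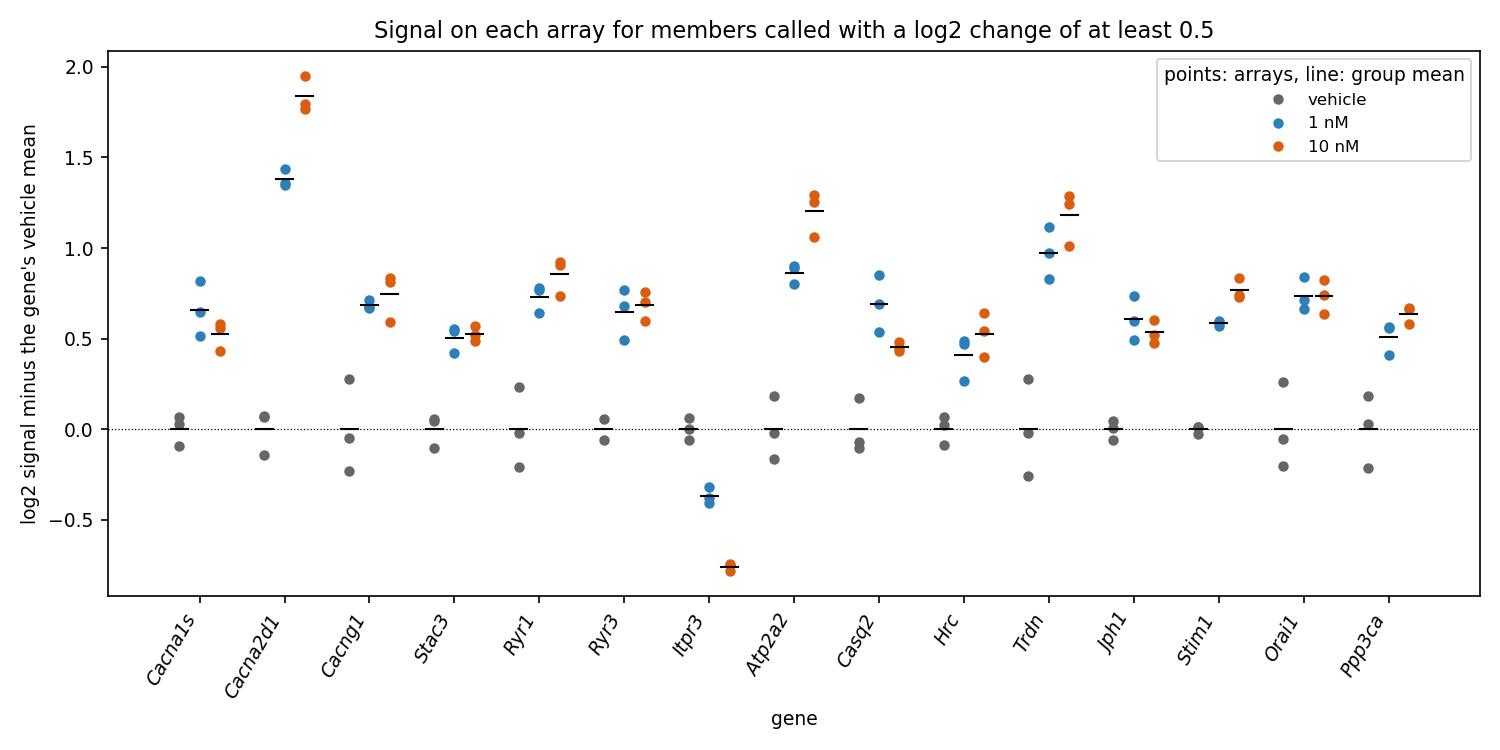
Each array's log2 signal is drawn as its distance from the gene's vehicle mean, for the 15 members that rose or fell with a change of at least 0.5 at either dose, with vehicle, 1 nM and 10 nM arrays in separate colours. Treated points of Itpr3 lie below its vehicle points and those of the other genes above theirs, and the steps between doses are widest for Cacna2d1 and Itpr3.

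Between the doses themselves, 1 member was higher at 10 nM than at 1 nM, against 1.6% of all genes, and 1 was lower, against 2.23% of all genes. Cacna2d1 was higher by 0.46 (0.25 to 0.66), or 1.37-fold (adjusted p = 0.0318), and Itpr3 was lower, with a difference of -0.39 (-0.54 to -0.25; adjusted p = 0.0147). With the replicate number as a block, neither passed the limma test, at adjusted p = 0.0826 and 0.0601. Both calls also hung on single arrays. The Cacna2d1 call was lost without vehicle replicate 1 or any treated array, where the difference was 0.40 to 0.49 with adjusted p from 0.0518 to 0.143. The Itpr3 call was lost without any treated array, at -0.41 to -0.37 with adjusted p from 0.0515 to 0.0863. The second Cacna2d1 probe gave 0.38 and missed the threshold (adjusted p = 0.0602 among probes). With normexp and quantile normalization Cacna2d1 differed by 0.415 (adjusted p = 0.137). With the submitters' values Cacna2d1 differed by 0.41 (adjusted p = 0.148) and Itpr3 by -0.36 (adjusted p = 0.068). The median difference over the 31 members was 0.02, and 16 of them had a positive sign. Without vehicle replicate 3 Itpr2 was also higher, at 0.27 (adjusted p = 0.048), and without vehicle replicate 2 Camk2a was lower, at -0.44 (adjusted p = 0.0286).

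Some genes had probes that did not move together. Asph had the widest split. It encodes aspartyl beta-hydroxylase and, from other promoters and exons of the same gene, junctin and junctate, proteins of the store membrane that bind calsequestrin or calcium. Its 4 probes are numbered here along the gene from the 5′ side, whichever transcripts they read. Probe 1, the brightest and so the value for the gene, was at 0.27 and 0.56 on the vehicle arrays with a value, at 0.62, 0.79 and 0.63 at 1 nM, and at 0.30, 0.28 and 0.09 at 10 nM. It changed by 0.26 (adjusted p = 0.188 among genes) and -0.19 (adjusted p = 0.279), so the gene did not pass the test. Probe 2 was at -0.54, -0.59 and -0.44 in vehicle and rose by 0.32 at 1 nM (adjusted p = 0.0263 among probes), with a change of -0.01 at 10 nM. Probe 3 fell by 0.58 (adjusted p = 0.00429) and by 0.79 (adjusted p = 0.000685). Probe 4, the most 3′, went from -0.89, -0.97 and -1.11 in vehicle to -1.92, -1.98 and -2.27 at 1 nM and -2.27, -2.01 and -2.16 at 10 nM.

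The treated arrays of Asph probe 4 lay below all vehicle arrays by about the same distance at both doses, with changes of -1.06 and -1.15 (adjusted p = 0.000527 and 0.000244). Under array median scaling probes 3 and 4 kept their sign, at -0.09 and -0.57 at 1 nM and -0.26 and -0.62 at 10 nM, without passing the test. Set against probe 2 on the same array, which removes the scaling, probe 4 changed by -1.38 at 1 nM and -1.15 at 10 nM. Which isoforms each probe reads was not determined here, since no annotation of the build was used. Probe 1 lies on the minus strand at chr4:9563054-9563113 (mm9).
Asph: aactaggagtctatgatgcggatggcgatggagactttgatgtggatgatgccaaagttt

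Fkbp1a had 3 kept probes. The brightest changed by 0.24 and 0.31 as given above, while the second changed by -0.56 and -0.42 without passing the test. The third changed by -0.24 at 1 nM (adjusted p = 0.104) and fell by 0.30 at 10 nM (adjusted p = 0.0423), a value that turned to 0.23 under array median scaling. The second probe of Orai1 changed by 0.21 (adjusted p = 0.663) and 0.30 (adjusted p = 0.503), the same direction as the brightest but inside its own spread. A second, dim probe of Camk2b changed by -0.15 and -0.33 without passing the test.

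**Figure D3:**
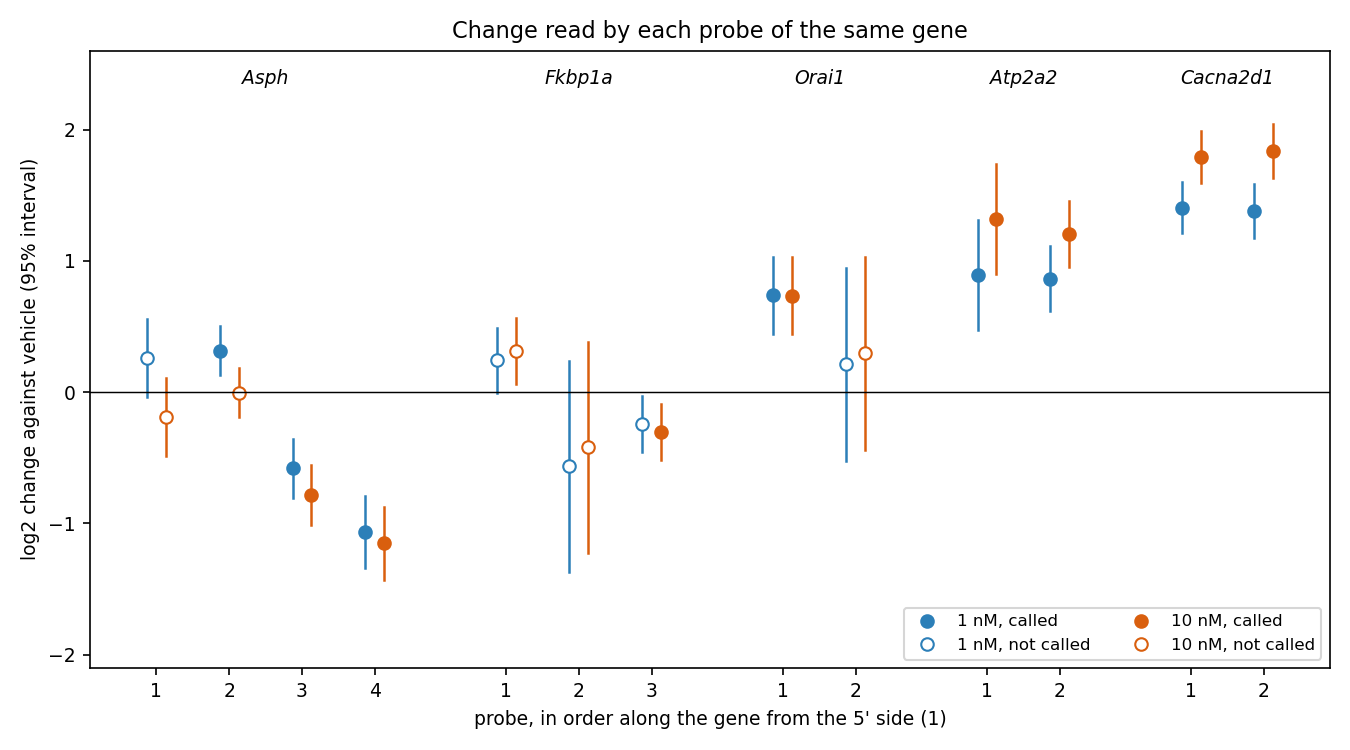
The log2 change of every kept probe of Asph, Fkbp1a, Orai1, Atp2a2 and Cacna2d1 is plotted in order from the 5′ side of the gene. Changes are shown at 1 nM and 10 nM calcitriol, with 95% confidence intervals. The probes of Atp2a2 and Cacna2d1 lie close together above 0, while the Asph probes run from 0.32 for probe 2 to -1.06 for probe 4 at 1 nM.

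The distance between a pair of genes or probes on the same array does not depend on how arrays are scaled. On that ground 6 pairs were compared over 3 vehicle and 3 treated arrays at each dose. They were chosen after their values had been seen, and an exact permutation test of 3 against 3 arrays cannot go below p = 0.1, or 0.12 after adjustment over the 12 tests. Atp2a2 gained on Atp2a1 by 0.50 at 1 nM and 0.74 at 10 nM, and the gap between the slow and the fast pump gene was wider on every treated array than on any vehicle array. Ryr1 gained on Itpr3 by 1.1 and 1.62, and Cacna2d1 gained on Cacnb1 by 1.00 and 1.51. All of these differences stood at exact p = 0.1. Casq2 gained on Casq1 by 0.30 at 1 nM (exact p = 0.1) and 0.19 at 10 nM (exact p = 0.6). Camk2b gained on Camk2a by 0.22 at 1 nM (exact p = 0.4) and by 0.81 at 10 nM (exact p = 0.1).

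Promoter sequence was read for the members that had an entry in the RefSeq promoter table (build GRCm38.p6), which were 19 of the 32, with 22 start sites. The 250 bases before each start were searched on both strands for the E-box CAGCTG, which myogenic factors such as MyoD bind, for the MEF2 site, for the CArG box of serum response factor and for the DR3 element of the vitamin D receptor. The E-box was found in 8 of the 22 windows, or 36.4%, against 13% of all 32851 windows of the table. The genes were Cacna1s, Fkbp1a, Atp2a1, Casq1, Hrc, Jph2 and Orai1, of which Cacna1s, Hrc and Orai1 rose at both doses and the other 4 did not pass the test at either. The MEF2 site was found before Casq2 and Pvalb, in 9.09% of windows against 2.92% of all. No window of a member held the CArG box or the DR3 element as searched, which 1.47% and 0.0396% of all windows held. A match is a description of the letters and shows no binding.

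The 4 windows printed here are shown with the matched letters in capitals. Cacna1s, Casq2 and Hrc rose, while Casq1 did not pass the limma test (adjusted p = 0.251 and 0.387). The windows of the other members with a match are not printed. The E-box lies 123 to 118 bases before the start of Cacna1s (chr1:136052561-136052810, plus strand), 195 to 190 before that of Casq1 (chr1:172219896-172220145, minus strand) and 22 to 17 before that of Hrc (chr7:45335019-45335268, plus strand). The MEF2 site lies 69 to 60 bases before the start of Casq2 (chr3:102086165-102086414, plus strand).
Cacna1s: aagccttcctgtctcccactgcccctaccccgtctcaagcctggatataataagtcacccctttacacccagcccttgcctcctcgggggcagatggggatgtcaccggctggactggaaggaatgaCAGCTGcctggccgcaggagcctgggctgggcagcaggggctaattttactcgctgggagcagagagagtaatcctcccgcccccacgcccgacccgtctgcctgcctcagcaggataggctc
Casq1: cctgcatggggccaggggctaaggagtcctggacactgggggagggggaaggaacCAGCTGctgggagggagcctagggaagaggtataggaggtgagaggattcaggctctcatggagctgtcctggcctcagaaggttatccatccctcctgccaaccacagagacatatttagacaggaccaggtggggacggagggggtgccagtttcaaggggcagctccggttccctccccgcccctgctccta
Hrc: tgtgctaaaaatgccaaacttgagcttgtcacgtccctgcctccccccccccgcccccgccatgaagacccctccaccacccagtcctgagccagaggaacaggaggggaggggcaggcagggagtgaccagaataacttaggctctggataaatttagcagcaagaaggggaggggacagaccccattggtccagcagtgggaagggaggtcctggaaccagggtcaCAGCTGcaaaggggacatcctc
Casq2: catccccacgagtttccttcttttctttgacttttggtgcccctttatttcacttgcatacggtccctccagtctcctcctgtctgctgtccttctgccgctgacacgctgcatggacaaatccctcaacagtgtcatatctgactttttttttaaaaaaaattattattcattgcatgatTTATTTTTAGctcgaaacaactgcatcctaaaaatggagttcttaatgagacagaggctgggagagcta

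Other genes of the pathway were counted on 6 lists that hold none of the members. Their counts are read against the shares of all genes. At 1 nM 11.8% of all genes rose and 11.8% fell, and at 10 nM 15.5% rose and 14.7% fell. On the list for structure of the triad, the T-tubules and the sarcoplasmic reticulum, 9 of 20 tested genes rose and 1 fell at 1 nM, and 7 rose and 1 fell at 10 nM. Jsrp1, a triad protein that binds the voltage sensor, rose by 0.48 (SE 0.080) and 0.72, and Bin1, which shapes T-tubules, rose by 0.40 (SE 0.070) and 0.48. Of 21 tested genes of membrane excitation, 5 rose and 4 fell at 1 nM, and 4 rose and 6 fell at 10 nM. Stac, a relative of Stac3, rose by 1.97 (SE 0.068) and 2.61, and Rem1, a small GTPase that inhibits calcium channels, fell by 1.67 (SE 0.112) and by 2.24.

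The list of other channels, pumps and their partners had 1 of 16 higher and 5 lower at 1 nM, and 2 higher and 5 lower at 10 nM. Atp2b1, a calcium pump of the plasma membrane, rose by 0.81 (SE 0.077) and 1.04, while Sri, whose product sorcin binds the ryanodine receptor, fell by 0.77 at both doses and Homer1, a scaffold of release channels, fell by 0.42 and by 0.46. General store buffers and entry genes had none of 17 higher and 7 lower at 1 nM by limma, with 0 higher and 8 lower at an unadjusted p under 0.05, and 1 higher and 7 lower at 10 nM. Among them Rcn3, Calu and Rcn1, calcium-binding proteins of the secretory pathway, fell by 1.06, 0.67 and 0.61 at 1 nM and by 1.32, 0.87 and 1.01 at 10 nM.

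Genes of mitochondrial calcium uptake gave 1 lower and none higher of 11 at 1 nM by limma (2 higher at an unadjusted p under 0.05), and 3 higher and 1 lower at 10 nM. Mcub, the subunit that restrains the mitochondrial uniporter, fell by 1.46 (SE 0.13) and by 1.43. Vdac2 and Letm1 rose at 10 nM by 0.33 and 0.39. The list of calcineurin, NFAT and calmodulin kinase signalling had 4 of 21 higher and 8 lower at 1 nM, and 5 higher and 9 lower at 10 nM. Camkk1, a kinase upstream of other calmodulin kinases, fell by 1.2 (SE 0.073) and by 1.48, Camk2n1, an inhibitor of calmodulin-dependent kinase II, fell by 1.04 and by 0.85, and Nfatc2, a transcription factor that calcineurin releases to the nucleus, fell by 1.44 and by 1.65.

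The direction of some of these lists depended on the scaling. With arrays centred on their median, the median change of the list of channels, pumps and partners turned from -0.39 to 0.10 at 1 nM and from -0.43 to 0.10 at 10 nM, and that of the store buffers from -0.37 to 0.13 and from -0.32 to 0.21, with no store buffer gene called at either dose. The medians of membrane excitation, at -0.01 and -0.12, and of the calcineurin list, at -0.03 and -0.05, turned to 0.48 and 0.41 and to 0.46 and 0.48. That of the triad list stayed positive, at 0.63 and 0.66 against 0.23 and 0.20, with 1 and 2 genes higher. Under that scaling the list of channels, pumps and partners had 1 gene higher and none lower at each dose. The falls of Sri and Homer1 were thus not called. No gene of mitochondrial calcium uptake was called at either dose, with medians of 0.64 and 0.72 against 0.15 and 0.19. Membrane excitation had 1 gene higher and 2 lower at 1 nM, and 3 and 2 at 10 nM. The calcineurin list had 0 and 1 at 1 nM, and 1 and 2 at 10 nM. With normexp and quantile normalization the median of channels, pumps and partners stayed negative, at -0.094 and -0.185. That of the store buffers did too, at -0.146 and -0.19, while that of membrane excitation turned to 0.206 and 0.155. With the 75th percentile of unmarked spots these medians were -0.241 and -0.277, -0.218 and -0.171, and 0.139 and 0.027.

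**Figure D4:**
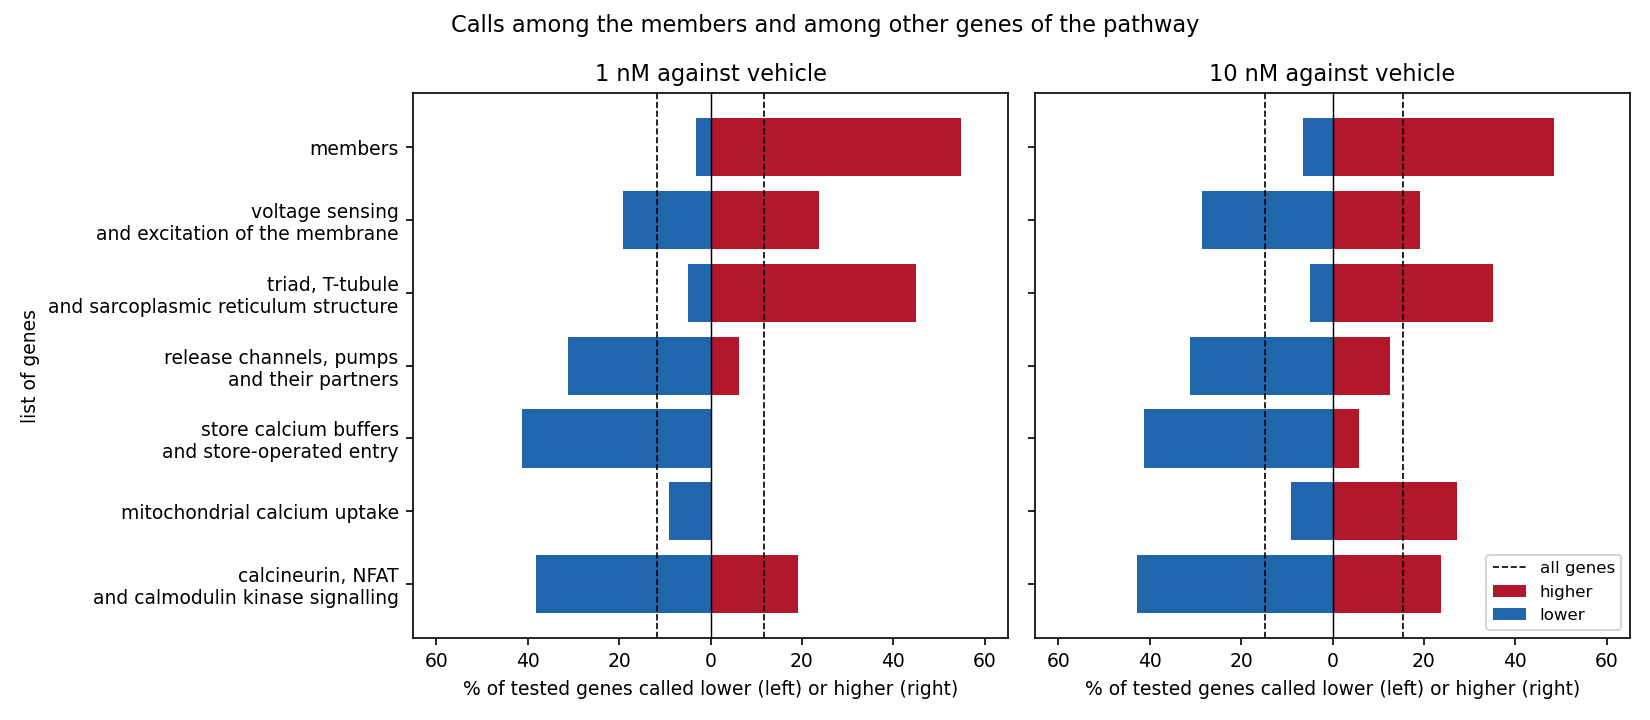
Bars give the percent of tested genes that rose or fell at each dose, for the 31 members and the 6 lists of other pathway genes, and dashed lines give the same percent over all genes tested. The members stand at 54.8% higher at 1 nM against 11.8% of all genes, and the store buffer list at 7 of 17 lower; with arrays scaled on their median the members have 4 genes higher and the store buffer list none lower.

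Markers of cell types and states were read beside these changes. Their counts stand against 11.8% of all genes higher and 11.8% lower at 1 nM, and 15.5% and 14.7% at 10 nM. In vehicle the summed signal of 14 skeletal myotube markers was 587 to 631 times the array's 75th percentile. It was 715 to 809 at 1 nM and 730 to 793 at 10 nM. Signal of these markers was thus present on every array, without a reference level by which to judge identity. Of these 14, 8 rose and none fell at 1 nM by limma (11 and 0 at an unadjusted p under 0.05), and 8 rose and 1 fell at 10 nM, with 2 higher and 0 lower at each dose under array median scaling. Slow-fibre markers rose in 5 of 6 at both doses, and in 3 under array median scaling, with a summed level of 160 to 181 in vehicle, 209 to 235 at 1 nM and 234 to 249 at 10 nM. Markers of cycling cells moved farthest: all 6 fell at both doses, under array median scaling too, and their sum went from 30.8 to 34.9 in vehicle to 1.67 to 1.93 at 1 nM and 1.06 to 1.1 at 10 nM. Of 7 markers of undifferentiated myoblasts and satellite cells, 2 rose and 3 fell at both doses. Under array median scaling 0 rose and 2 fell at 1 nM, and 2 rose and 2 fell at 10 nM. The part of these markers in the members' changes was not tested.

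Cardiac markers were read because Casq2 and Atp2a2 are also heart genes. Of 8, 1 rose and 1 fell at 1 nM, and 2 rose and 1 fell at 10 nM; Tnni3, cardiac troponin I, rose by 1.1 and 1.59, and Nppb, a natriuretic peptide, fell by 0.82 and by 0.85, with a sum over the list of 0.812 to 1.37 in vehicle, 1.11 to 1.17 at 1 nM and 1.18 to 1.34 at 10 nM. Under array median scaling 2 cardiac markers rose and none fell at each dose, so the fall of Nppb was not called. The sum of 4 smooth muscle markers was 205 to 220 in vehicle, 136 to 148 at 1 nM and 107 to 112 at 10 nM. Of the 4, 3 fell at both doses, and under array median scaling 1 fell at 1 nM and 2 at 10 nM. Of 6 fibroblast markers 3 rose and 3 fell at 1 nM, and 2 rose and 3 fell at 10 nM, and under array median scaling 2 and 1 rose and none fell. The collagen genes Col1a1, Col1a2 and Col3a1 fell by 1.35, 0.89 and 0.52 at 1 nM, while Dcn rose by 1.46 (SE 0.123). The sum of the list was 278 to 293 in vehicle, 177 to 199 at 1 nM and 174 to 200.3 at 10 nM. Adipocyte markers rose in 2 of 7 at 1 nM and 3 of 7 at 10 nM, with a sum of 0.919 to 1.60 in vehicle, 2.80 to 2.95 at 1 nM and 6.10 to 6.49 at 10 nM. Of 5 neuron markers 3 fell at both doses, with sums of 14.9 to 20.2, 11.6 to 13.9 and 9.62 to 14.9. Under array median scaling 1 of them fell at 1 nM and 2 at 10 nM. No macrophage marker of 4 passed the limma test at either dose under the 75th percentile, and none had an unadjusted p under 0.05, with sums between 1.68 and 2.38 on all arrays, and 1 rose at 10 nM under the array median. The part of these cell types in the results was not tested.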

How the data were processed

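Cy3-labelled RNA of 9 cultures was read on 1-colour Agilent arrays. Scanning and extraction used Agilent Feature Extraction 11.5.1.1, and the submitters used limma, per the submitters' processing notes. The deposited intensity values (processed signal) were background-subtracted and spatially detrended, per the file headers, and not scaled between arrays. The submitters also deposited processed values for 30094 probes, found to be log2 by comparison with the scanner signals and used as an alternative only.

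Control spots and spots marked as non-uniform outliers were left out. The log2 signal minus the array's 75th percentile was averaged per probe, probes well above background on every array of any 1 group were kept, which left 28368 of 39429 probes (71.9%), and the brightest kept probe stood for its gene. Of the kept probes, 21061 were named by accession, 2366 by symbol and 4941 by the files' own name. limma 3.58.1 (lmFit and eBayes, R 4.3.3, the data.table package 1.17.8) fitted 1 model of 3 groups; tests are two-sided, with a threshold of 0.05. The scripts were tested on simulated data.

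All members are named; each array's value is given for members that passed with a log2 change of at least 0.5, and from each other list up to 3 genes with the smallest p are named, of which some are not reported here. Members, lists and markers were chosen with earlier results of these data known. Same-numbered arrays of the 2 doses correlated in their deviations at 0.483, 0.33 and 0.141. Between 10 nM replicate 2 and 1 nM replicate 3 the correlation was 0.309. Replicate 1 of both doses lay on slide 1, and replicate 2 of both doses and 1 nM replicate 3 on slide 2. The array of 10 nM replicate 3 lay on slide 3. Replicate number and slide of the 2 doses therefore go together for replicates 1 and 2 and differ for replicate 3 (0.141). The part of each was not tested. The replicate numbers do not pair either dose with vehicle (-0.422 to 0.055). Alternatives changed the background correction, scaling, filter, probe choice, marked spots, source of values, spread model, blocks, threshold and arrays used. The percentile over unmarked spots, and the alternatives for the other lists and for single probes, were chosen after seeing the data. The number of arrays limits the precision.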

Additional observations from a re-analysis of the deposited data

How the results depend on the processing

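Of 27 alternatives, 9 leave out 1 array. Of the calls among members, Cacna2d1 at 1 nM and Cacna2d1, Atp2a2, Trdn and Stim1 at 10 nM held under all 27, which is 1 of 18 and 4 of 17; 14 and 15 held without each array. Members that did not pass the test changed sign under some alternative in 8 of 13, 6 of 14 and, between doses, 11 of 29 cases.

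Array median scaling gave 4 members higher, 0 lower and a median of 0.88 at 1 nM, and 9, 0 and 0.98 at 10 nM. The 75th percentile of unmarked spots gave medians of 0.56 and 0.61. It had 0 members lower at 1 nM and 1 at 10 nM, where 1471 and 2065 of all genes were. The members' median lay above that of all genes by 0.31 to 0.70 at 1 nM and 0.34 to 0.71 at 10 nM over 26 settings, and the lowest values are those of normexp with quantile normalization. Within slide 1, which holds 2 vehicle arrays and 1 of each dose, 1 and 5 members were higher and 0 lower; within slide 2 the median at 1 nM was 0.55 and that between doses was -0.065. With a filter above background on all 9 arrays 2 members were lower at 1 nM, against 2463 of 18445 genes. That filter takes another probe of Asph, whose value reversed to -0.58. Under array median scaling Itpr3 reversed to 0.12 at 1 nM, Camk2a to 0.18 at 10 nM and the third Fkbp1a probe (A_55_P1991134) to 0.23 at 10 nM; the cause was not tested beyond the shift of all genes given above.

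With the replicate block, 15 members were higher and 1 lower at each dose, and 0 higher and 0 lower between doses, against 1 and 1 without it. Of all genes, 2279 were higher and 2382 lower at 1 nM with that block, 3151 and 3054 at 10 nM, and 197 and 261 between doses. At 10 nM 1 member was lower with either normexp setting, the submitters' values, no filter, only the 2 groups compared, the slide block or an adjusted p of 0.01. With array weights 4 members were lower there, against 4201 of all 21930 genes. Between doses 0 members were higher with either normexp setting, array median scaling, the submitters' values or no filter. The same held with unmarked spots, the slide block and an adjusted p of 0.01. With array weights and with only the 2 groups compared 2 members were higher, against 885 and 650 of all genes. No member was lower between doses with array median scaling, the submitters' values, unmarked spots, the slide block and at 0.01. With trend and robust spread 2 members were lower, and 3 with array weights and with only the 2 groups, against 550, 1066 and 702 of all genes.

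Leaving out each array in turn gave 13 to 19 members higher and a median of 0.37 to 0.52 at 1 nM, 14 to 19 higher and 1 to 3 lower at 10 nM, and 0 to 2 higher and 0 to 2 lower between doses. Of all genes, 1602 to 2916 were then higher at 1 nM, and 2526 to 3785 higher and 2497 to 3352 lower at 10 nM. Between doses 160 to 589 genes were higher and 205 to 679 lower. Without vehicle replicate 3 Camk2d at 1 nM and Camk2a at 10 nM no longer passed, and Sln did at both doses. Over all genes, array median scaling gave 939 higher and 572 lower at 1 nM. Signal over background limits Pln, which was above background on 1 array.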
